A study of Mus musculus with 6 samples.

Results

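Tuft cells are rare chemosensory cells of the intestinal epithelium. They detect luminal signals such as succinate, pass them on through a cascade shared with taste cells that ends at the cation channel TRPM5, and release interleukin-25, acetylcholine and eicosanoids, the lipid mediators made from arachidonic acid. The transcription factor POU2F3 is required for their formation in mice, and their signals drive the type 2 immune response to worms and protists. The 10 genes described here are established tuft cell markers: Sucnr1 and Trpm5 of the sensing arm, the transcription factors Pou2f3 and Gfi1b, the kinase, actin and adaptor genes Dclk1, Avil and Sh2d6, and the eicosanoid enzymes Alox5, Ptgs1 and Hpgds. They were chosen by name, and all 10 were among the 32219 genes of the table.

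RNA from mouse intestine was sequenced in 3 libraries labelled KO and 3 labelled WT. The labels give no further genotype, age, sex or treatment, and do not name the deleted gene; the series title concerns GPR41 and DHX9 signalling in enteric neurons. Ffar3, the gene of GPR41, was at 0.35 and 0.59 in KO 2 and KO 3, against 0.60, 0.18 and 0.46 in WT 1, WT 2 and WT 3, which overlap and cannot check the labels while the deleted gene is unnamed. The cell type label lists epithelial cells, immune cells and enteric neurons, and the design text speaks of the total duodenum. The labels do not say whether the libraries came from separate animals, so any p-value here speaks only of library-to-library spread, part or all of which may be technical.

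The values were read as log2(abundance + 1), a base that the labels do not give. Depth is unknown because the table gives no counts. The added constant shrinks the fold of genes near 0. KO 1 listed 9729 genes above 0, against 22061 to 22768 in the other 5 libraries, because it holds no values on chromosomes 2 to 9, X, Y and M, nor on most of 19. Its zeros there were treated as missing, and its other linear values, which stood 2.12-fold above those of the other libraries, were divided by that factor wherever they are called rescaled. KO 1 also went against the others in genes of gut position: the proximal factor gene Gata4 was at 5.19 rescaled in KO 1, against 0.43 to 0.63 elsewhere, and Fabp6, the ileal bile acid binding protein, was at 3.91 rescaled against 8.16 to 8.76. The high Fabp6 of the other 5 libraries stands against a design text that names the duodenum. Gip, a further gene of the position list, was at 1.14 and 1.22 in KO 2 and KO 3. In WT 1, WT 2 and WT 3 it was at 0.27, 0.77 and 0.73 (log2 fold 0.59 ± 0.17, SE, limma adjusted p = 0.99998, unadjusted p = 0.013). It was the only 1 of 8 position genes with KO 2 and KO 3 both outside the WT range. The part of gut position in the comparison was not tested. Only Avil among the 10 members lies where KO 1 has values, so the comparison rests on KO 2 and KO 3 against WT 1, WT 2 and WT 3.

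The octamer is the element that POU domain factors such as POU2F3 bind. It was searched as ATGCAAAT, or ATTTGCAT for the other orientation, in the RefSeq promoters of build GRCm38.p6, from 250 bases before to 50 after each gene start. Promoters were matched for 9 members, all but Pou2f3, and Dclk1 had a pair of them. Of these 10 promoters, 2 held the octamer, those of Sucnr1 and Hpgds, where 1.74% of all 32851 promoters did. Counted from the RefSeq gene start, the first base of the octamer lay at -48 in Sucnr1 (chr3:60081781-60081868, plus strand) and at -174 in Hpgds (chr6:65144857-65144944, minus strand). For Sucnr1 the RefSeq and GENCODE starts are the same base. For Hpgds the RefSeq start is 65144730 and the GENCODE start 65144908, and the octamer begins 4 bases inside the GENCODE gene. Both stretches are printed 5′ to 3′ with the octamer in capitals, since they are the ones that carry it. A match describes the letters and shows no binding.
Sucnr1: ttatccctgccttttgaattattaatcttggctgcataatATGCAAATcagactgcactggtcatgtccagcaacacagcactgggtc
Hpgds: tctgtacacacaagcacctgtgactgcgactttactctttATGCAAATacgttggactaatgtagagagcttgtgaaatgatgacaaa

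For no tuft cell gene was the difference between KO and WT larger than the spread between libraries allowed the test to call. By limma, 0 of 10 members passed an adjusted p of 0.05 (Benjamini-Hochberg over 22047 genes), with 0 at an unadjusted p under 0.05. Over all genes tested, 0.00454% passed (1 gene) and 2.23% had an unadjusted p under 0.05. With libraries centred on epithelial genes, 57 genes passed, 24 of them higher in KO, and again 0 members. The smallest limma adjusted p there was 2.96e-34, which is not credible from 5 libraries. At an unadjusted p under 0.05 it had 319 genes, against 491 in the main comparison. The count of 57 is therefore not relied on. KO 2 and KO 3 lay on one side of every WT library for none of the 10 members, against 13.6% of all genes tested (9.82% with KO above and 3.77% with KO below). Of the members, 5 had a higher and 5 a lower mean in KO, with a median log2 fold of 0.0052, where the median over all genes tested was 0.026. The limma adjusted p was 0.99998 for each of the 10, and the size of each fold with its interval is given below.

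**Figure D1:**
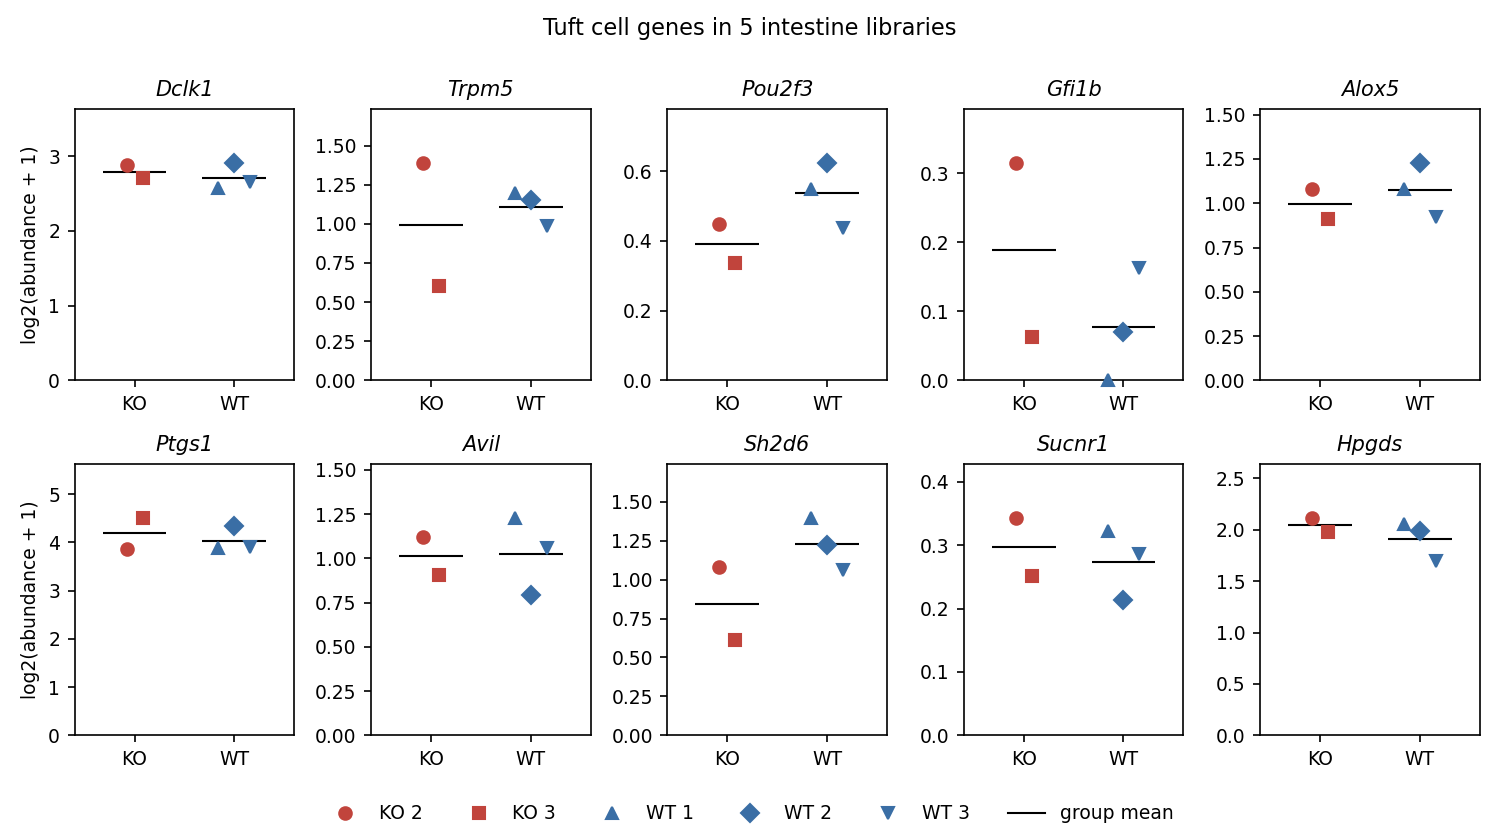
Level of each of the 10 tuft cell genes as log2(abundance + 1), with KO on the left and WT on the right of each panel. Each point is 1 library and the black line is the group mean; the ranges of both groups overlap in every panel, and KO 3 lies lowest for Trpm5, Pou2f3, Alox5 and Sh2d6.

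Of the sensing genes, Sucnr1 encodes the receptor for succinate and Trpm5 the cation channel that depolarises the cell. Sucnr1 (chromosome 3, 60081869 to 60087566, plus strand) was at 0.34 and 0.25 in KO 2 and KO 3, against 0.32, 0.21 and 0.29 in WT 1, WT 2 and WT 3. The KO values fell within or just above the WT range, and the log2 fold was 0.023 ± 0.062 (SE, 95% interval -0.13 to 0.17). At so low a level the added constant shrinks both fold and interval, so a narrow interval does not show an unchanged level. With a constant of 0.1 the fold of Sucnr1 was 0.090. Trpm5 (chromosome 7, 143069153 to 143094642, minus strand) was at 1.39 in KO 2 and 0.60 in KO 3, against 1.20, 1.15 and 0.98 in WT 1, WT 2 and WT 3. The KO libraries lay on opposite sides of the WT range, KO 2 above all and KO 3 below all. The log2 fold of Trpm5 was -0.11 ± 0.24 (SE; 95% interval -0.70 to 0.47), and its sign rested on KO 3: without KO 3 it was 0.28, and without KO 2 it was -0.51.

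Pou2f3 and Gfi1b encode the transcription factors of the lineage. Pou2f3 (chromosome 9, 43123939 to 43210369, minus strand) was at 0.45 and 0.34 in KO 2 and KO 3, against 0.55, 0.62 and 0.44 in WT 1, WT 2 and WT 3. KO 3 was the lowest library, and KO 2 stood just above WT 3. The log2 fold of Pou2f3 was -0.14 ± 0.085 (SE; 95% interval -0.35 to 0.063). Gfi1b (chromosome 2, 28609450 to 28621982, minus strand), which also acts in the megakaryocyte and red cell lineages, was close to 0 throughout. It was at 0.31 and 0.063 in KO 2 and KO 3, against 0.070 and 0.16 in WT 2 and WT 3, and was listed at 0 in WT 1. Its log2 fold of 0.11 ± 0.088 (SE; 95% interval -0.10 to 0.33) rested on KO 2, without which it was -0.015. Markers of megakaryocytes and red cells summed, in linear values, to 317.2 and 147.5 in KO 2 and KO 3, against 159 to 418 in WT. None of the 9 markers was at 0 in all 5 libraries. The globin genes Hba-a1 (log2 value 7.47 in KO 2) and Hbb-bs (7.05 in KO 2) weigh most in that sum. It therefore says little of the other markers, and the part of these cells in the Gfi1b level was not tested.

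Sh2d6, which encodes an adaptor with an SH2 domain, came closest to a difference. Sh2d6 (chromosome 6, 72513641 to 72521707, minus strand) was at 1.08 and 0.61 in KO 2 and KO 3, against 1.40, 1.22 and 1.06 in WT 1, WT 2 and WT 3, a WT mean of 1.23 ± 0.17 (SD, n = 3). KO 3 was below every WT library, and KO 2 exceeded WT 3 by a narrow margin. Its log2 fold of -0.38 ± 0.19 (SE; 95% interval -0.84 to 0.078) was the largest of the 10 in size, with an adjusted p of 0.99998 by limma as for the others. Much of it came from KO 3: the fold was -0.14 without KO 3 and -0.62 without KO 2.

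Dclk1 encodes a microtubule-associated kinase, the classical tuft cell marker, which enteric neurons also express. Dclk1 (chromosome 3, 55242364 to 55539068, plus strand) was at 2.88 and 2.71 in KO 2 and KO 3, against 2.57, 2.91 and 2.66 in WT 1, WT 2 and WT 3. Both KO values fell within the WT range, and the log2 fold was 0.084 ± 0.15 (SE; 95% interval -0.29 to 0.46). Avil encodes advillin, an actin-binding protein of the apical tuft that sensory neurons also make. Avil (chromosome 10, 127000709 to 127020994, plus strand) was at 1.12 and 0.90 in KO 2 and KO 3, against 1.23, 0.79 and 1.06 in WT 1, WT 2 and WT 3. Its log2 fold was -0.013 ± 0.17 (SE; 95% interval -0.42 to 0.40). In KO 1 Avil was at 1.26 as deposited and 0.73 rescaled. The rescaled value lay below every other library, and with KO 1 rescaled in the fit the fold was -0.11.

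**Figure D2:**
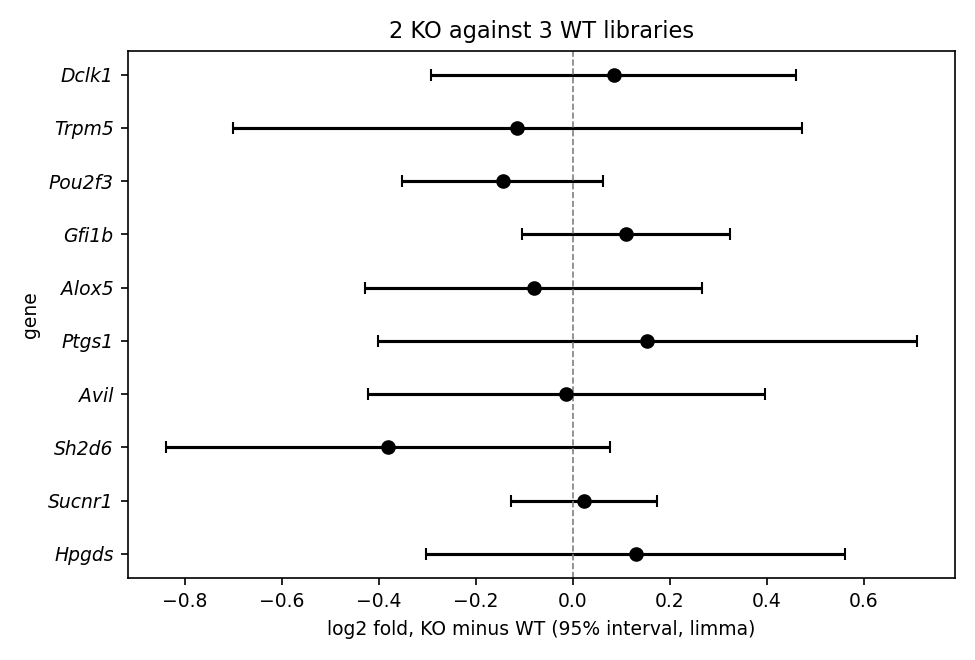
The log2 fold of KO over WT for the 10 tuft cell genes, from limma on 2 KO and 3 WT libraries, with bars for the 95% interval. Every interval includes 0, and Sh2d6, at -0.38, is the farthest from it.

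The eicosanoid enzymes were the members most widely shared with other cells, since macrophages and mast cells also make them. Alox5 encodes the lipoxygenase that starts leukotriene synthesis. Alox5 (chromosome 6, 116410077 to 116461178, minus strand) was at 1.08 and 0.91 in KO 2 and KO 3, against 1.08, 1.23 and 0.92 in WT 1, WT 2 and WT 3. KO 3 stood just below WT 3 and KO 2 within the WT range, and the log2 fold was -0.081 ± 0.14 (SE; 95% interval -0.43 to 0.27). Hpgds encodes the hematopoietic prostaglandin D synthase. Hpgds (chromosome 6, 65117293 to 65144908, minus strand) was at 2.11 and 1.97 in KO 2 and KO 3, against 2.06, 1.99 and 1.69 in WT 1, WT 2 and WT 3. Its log2 fold was 0.13 ± 0.18 (SE; 95% interval -0.30 to 0.56), with KO 3 inside the WT range and KO 2 slightly above it. The fold was 0.018 without WT 3, 0.060 without KO 2, 0.20 without WT 1 and 0.20 without KO 3.

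Ptgs1 encodes the constitutive cyclooxygenase, which makes the precursor of the prostaglandins. The order of its libraries was unlike that of Alox5 or Hpgds. Ptgs1 (chromosome 2, 36230426 to 36252272, plus strand) was at 3.87 in KO 2 and 4.50 in KO 3, against 3.88, 4.33 and 3.89 in WT 1, WT 2 and WT 3. KO 3 and WT 2 were high and the other 3 libraries nearly level. The log2 fold was 0.15 ± 0.23 (SE; 95% interval -0.40 to 0.71), and it was -0.16 without KO 3 and 0.47 without KO 2. Markers of enteric neurons followed the same order of libraries. Their summed linear level was 31.8 in KO 2 and 50.04 in KO 3, against 43.6 in WT 2, 37.0 in WT 3 and 34.3 in WT 1, with none of 10 markers at 0 in all 5 libraries. The summed mast cell list was also highest in WT 2 and KO 3, at 21.97 and 21.94, with KO 2 at 20.35. The part of neurons, mast cells or other cells of the gut wall in the Ptgs1 level was not tested.

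**Figure D3:**
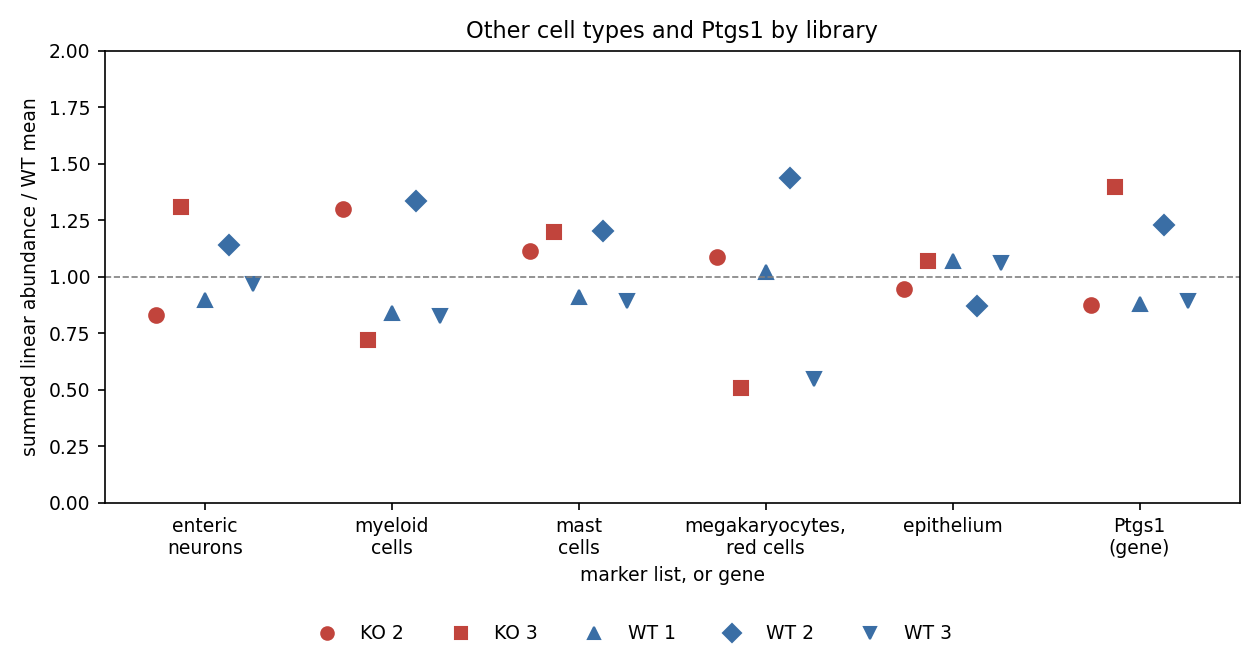
Summed linear abundance of marker lists for other cell types, and linear abundance of Ptgs1, each divided by its WT mean (dashed line at 1), with 1 point per library. KO 3 and WT 2 are highest for enteric neurons, mast cells and Ptgs1, while KO 2 and WT 2 are highest for myeloid cells.

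The members did not move as a block across libraries. KO 3 was the lowest of the 5 libraries for 4 members (Trpm5, Pou2f3, Alox5 and Sh2d6) and the highest for 1 (Ptgs1). KO 2 was the highest for 4 members (Trpm5, Gfi1b, Sucnr1 and Hpgds) and the lowest for 1 (Ptgs1). Measured against the WT mean of each gene, the median member stood at 0.082 in KO 2 and -0.071 in KO 3, while the WT libraries ran from -0.11 in WT 3 to 0.059 in WT 2. The distance between the KO libraries was thus similar to that among the WT libraries. For those 4 members low in KO 3, WT 3 stood second lowest. The summed level of epithelial markers, at 2016 and 2283 in KO 2 and KO 3, lay within the WT range of 1860 to 2284. In whole-tissue RNA, fewer tuft cells and less RNA per tuft cell cannot be told apart.

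**Figure D4:**
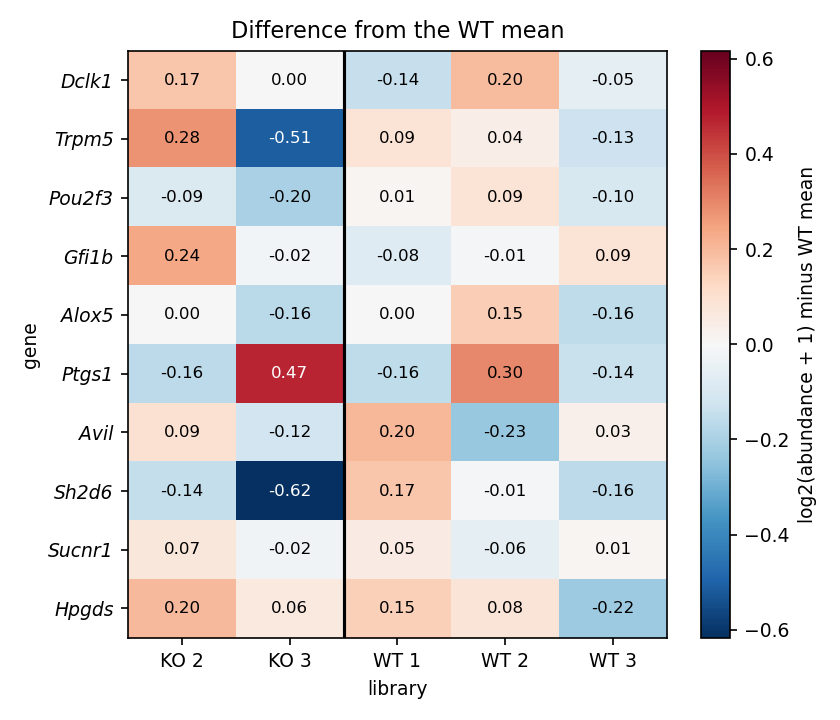
Difference of each library from the WT mean of the same gene, in units of log2(abundance + 1), for the 10 tuft cell genes. KO 3 is below the WT mean for Sh2d6 by 0.62 and for Trpm5 by 0.51 and above it for Ptgs1 by 0.47, and no library has the same sign for all genes.

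Levels differed widely between members. Multiplied by gene length, the linear values of a library summed to between 496669 and 525664 over mean transcript lengths in kilobases and to between 1304885 and 1400609 over all exon bases. A value per kilobase scaled to 1000000 reads would give 1000000, which lies between them, so the abundances were read as scaled by length. On this linear scale, averaged over the 5 libraries, Ptgs1 was highest at 16.4, followed by Dclk1 at 5.72 and Hpgds at 2.93. Sh2d6 (1.14), Trpm5 (1.12), Alox5 (1.07) and Avil (1.04) followed with ranges over the libraries that overlapped, so their order was not resolved. Pou2f3 (0.397), Sucnr1 (0.218) and Gfi1b (0.0916) were lowest, and Gfi1b lay above only 9.75% of the genes tested.

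Further tuft cell genes gave the same picture by count. The taste transduction list holds the G protein, phospholipase and receptor genes around TRPM5. Of its 13 genes, 11 were tested, 7 higher and 4 lower in KO, with 0 past the limma threshold and a median log2 fold of 0.024. Itpr3, the receptor that releases calcium ahead of TRPM5, had a log2 fold of 0.12 ± 0.093, Gnb3, a G protein subunit, one of 0.065 ± 0.057 and Tas1r1, a taste receptor subunit, one of -0.047 ± 0.050 (SE). Vmn2r26, a vomeronasal receptor gene, had one of -0.035 ± 0.043 (SE). Gng13, a gamma subunit of the same cascade, was chosen after its values were seen. In KO 2 it stood at 0.33, in KO 3 at 0.21 and in KO 1 rescaled at 0.20, whereas all 3 WT libraries listed it at 0. Being above 0 in too few of the 5 libraries, it was not tested in the main comparison, and with no filter on low values limma gave it an adjusted p of 0.816 (unadjusted p = 0.000795). Its exons share 399 of 773 bases with Chtf18 on the opposite strand, which was at 2.02 and 2.10 in KO 2 and KO 3, against 1.85 to 2.08 in WT. The libraries were stranded, but whether the table was counted by strand is not stated. The part of Chtf18 reads in the Gng13 values was not tested.

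The effector list holds the cytokine, acetylcholine and eicosanoid genes of tuft cell output. Il25, the cytokine that starts the type 2 circuit, was at 0.052 in KO 1 rescaled and was listed at 0 in KO 2, KO 3 and all WT libraries. Of the 8 effector genes tested, 5 were higher and 3 lower in KO (median log2 fold 0.15), 0 passed by limma and 2 had both KO libraries above every WT library, where 9.82% of all genes tested did. Those 2 act with Alox5 in leukotriene synthesis: Ltc4s, the leukotriene C synthase gene, and Alox5ap, the gene of the protein that presents arachidonic acid to the lipoxygenase. Ltc4s was at 1.66 in KO 1 rescaled, 1.75 in KO 2 and 1.77 in KO 3, against 1.43, 1.45 and 1.39 in WT 1, WT 2 and WT 3. KO 2 and KO 3 lay above the narrow WT range, and the log2 fold without KO 1 was 0.34 ± 0.14 (SE, 95% interval -0.00026 to 0.67, limma adjusted p = 0.99998, unadjusted p = 0.0501). KO 1 rescaled lay above it too, but its value rests on the division by 2.12. KO 1 also differed from the others in genes of gut position, so genotype and position cannot be told apart in it. Alox5ap was at 1.35 and 1.41 in KO 2 and KO 3, against 0.99, 1.27 and 1.23 in WT 1, WT 2 and WT 3, a log2 fold of 0.22 ± 0.15 (SE).

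**Figure D5:**
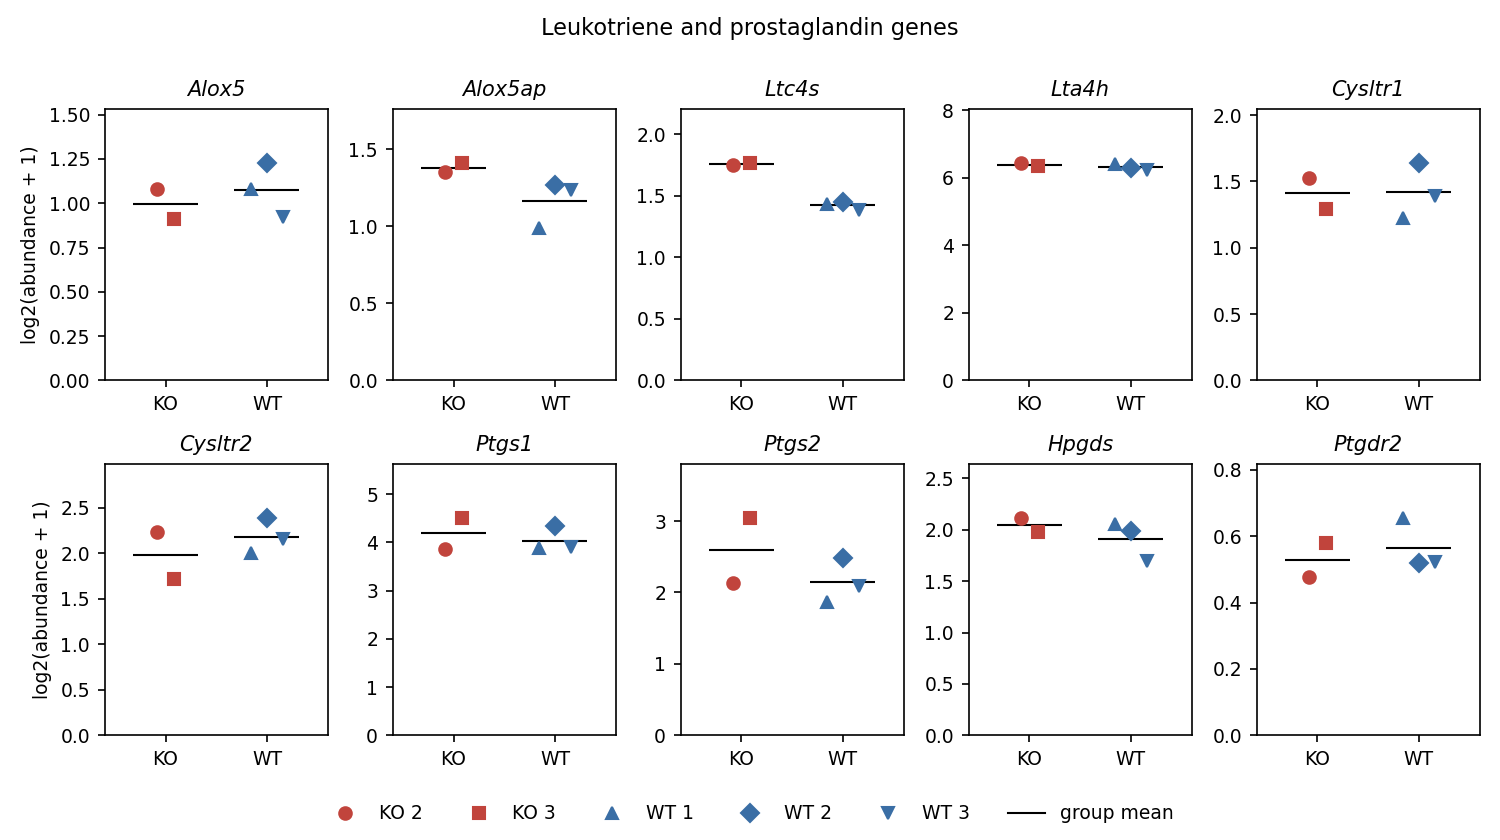
Genes of leukotriene and prostaglandin synthesis and their receptors as log2(abundance + 1), with KO on the left and WT on the right of each panel, 1 point per library and a line for the group mean. Ltc4s and Alox5ap have both KO libraries above the 3 WT libraries, while the groups overlap for Alox5 and Hpgds.

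Other genes of the eicosanoid route overlapped between groups. Ptgs2, the inducible cyclooxygenase, was at 2.14 in KO 2 and 3.04 in KO 3, against 1.87, 2.48 and 2.09 in WT 1, WT 2 and WT 3, and its log2 fold of 0.44 ± 0.32 (SE) was -0.011 without KO 3. Tslp, an epithelial cytokine, was at 0.48 and 0.72 in KO 2 and KO 3, against 0.15, 0.50 and 0.41 in WT 1, WT 2 and WT 3 (log2 fold 0.25 ± 0.13, SE). Mast cells and myeloid cells make leukotrienes too. The summed level of the mast cell list was 20.3 and 21.9 in KO 2 and KO 3, against 16.3 to 22.0 in WT. Of its 11 genes, 3 (Fcer1a, Mcpt4 and Cma1) were listed at 0 in all 5 libraries. The mucosal mast cell proteases were detected in each of them, Mcpt1 at 1.41 and 1.41 in KO 2 and KO 3, against 0.86 to 1.44 in WT, and Mcpt2 at 0.52 and 0.70 in KO 2 and KO 3, against 0.58 to 0.71 in WT. The summed level of myeloid markers was 180.1 and 99.5 in KO 2 and KO 3, against 114 to 185 in WT. The part of either cell type in the Ltc4s and Alox5ap values was not tested.

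Regulators and broader signature genes did not pass either. Of 8 transcription-related genes tested, 6 were higher and 2 lower in KO (median log2 fold 0.11) and 0 passed by limma. Hmx3, a homeobox gene, had a log2 fold of 0.33 ± 0.17 (SE), which was 0.042 without KO 3, and Sox9, a factor of crypt and secretory cells, one of 0.19 ± 0.13, which was -0.036 with KO 1 rescaled. Spib, which B cells and M cells also use, was at 3.02 in KO 2 and 1.11 in KO 3, against 0.91, 2.55 and 0.67 in WT 1, WT 2 and WT 3. The pan-leukocyte gene Ptprc, itself on the signature list, followed the same split, at 5.52 in KO 2 and 3.63 in KO 3, against 4.001, 5.03 and 3.52 in WT 1, WT 2 and WT 3. The part of lymphoid tissue in these values was not tested.

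Of the 28 signature genes, all tested, 22 were higher and 6 lower in KO with a median log2 fold of 0.072, while 13466 of 22047 genes were higher over the whole table. None passed by limma. Both KO libraries were above every WT library for 3 of the 28, a share near the 9.82% of all genes tested, so the count says nothing particular about the list. They were Hebp1, a heme-binding protein gene, Cd300lf, a receptor that also serves as the entry site of murine norovirus, and Bmx, a tyrosine kinase gene. Hebp1 was at 1.58 and 1.29 in KO 2 and KO 3, against 0.70, 1.06 and 1.18 in WT 1, WT 2 and WT 3 (log2 fold 0.46 ± 0.19, SE). Cd300lf was at 1.39 and 1.38 in KO 2 and KO 3, against 0.76, 1.35 and 0.73 in WT 1, WT 2 and WT 3 (log2 fold 0.44 ± 0.22, SE). In KO 1 rescaled it stood at 1.14, inside the WT range. The fold of Bmx was 0.13 ± 0.086 and that of Vav1, a signalling gene of leukocytes, was 0.44 ± 0.32 (SE). Without KO 2 the fold of Vav1 was -0.0040.

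In the type 2 circuit that tuft cells feed, no gene passed the limma threshold. Il13, the cytokine that expands tuft and goblet cells, was listed at 0 in KO 2, KO 3 and all WT libraries. Of the 19 genes tested, 10 were higher and 9 lower in KO (median log2 fold 0.015), and the groups overlapped for every one. Areg, a growth factor of type 2 lymphoid cells, was at 2.14 in KO 2 and 1.16 in KO 3, against 2.35, 1.85 and 2.36 in WT 1, WT 2 and WT 3, and its log2 fold of -0.54 ± 0.33 (SE) was -0.048 without KO 3. Retnlb, a goblet cell gene induced by worms, had a log2 fold of 0.38 ± 0.36, which was -0.19 with KO 1 rescaled, 0.12 without WT 2 and 0.76 without WT 3 (SE). Gata3, the type 2 lineage factor, had one of 0.17 ± 0.15 and Il9, a mast cell cytokine, one of -0.091 ± 0.072 (SE). Goblet cell markers, the other epithelial output of this circuit, had a median log2 fold of -0.021 over 6 genes, and enteroendocrine markers, a further rare epithelial lineage, one of 0.22 with 6 of 6 higher and 0 past the limma threshold.

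Among markers of other cells that share members with tuft cells, none passed by limma either. Tpsb2, a mast cell tryptase gene, was at 0.20 and 0.22 in KO 2 and KO 3, against 0.15 in WT 1 and a listed 0 in WT 2 and WT 3. S100a8, a neutrophil gene, was at 0.69 and 0.99 in KO 2 and KO 3, against 0.59 and 0.49 in WT 2 and WT 3 and a listed 0 in WT 1. Tpsb2 and S100a8 were thus above WT in KO 2 and KO 3, at low levels, as was Elavl3, an RNA-binding protein gene of neurons (log2 fold 0.22 ± 0.10, SE). They were 1 of 8 mast cell, 1 of 13 myeloid and 1 of 10 neuron genes tested. Of 8 megakaryocyte and red cell genes tested, 1 was also above WT in both KO libraries. It was Klf1, at 0.32 in KO 2 and KO 3, against 0.25, 0.23 and 0.25 in WT 1, WT 2 and WT 3. Over all genes tested, 9.82% had both KO libraries above WT. S100a9, a further neutrophil gene, went the other way in its mean (log2 fold -0.072 ± 0.12, SE). Of the 13 myeloid genes, 5 were higher and 8 lower in KO. Insm1, a factor of enteroendocrine cells, was at 1.15 and 1.28 in KO 2 and KO 3, against 0.92, 0.95 and 0.96 in WT 1, WT 2 and WT 3. Its log2 fold was 0.27 ± 0.12 (SE). Of the 6 enteroendocrine genes tested, 2 had both KO libraries above every WT library.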

How the data were processed

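The authors deposited 1 table of log2 abundances with a constant of 1 added. The genome build is mm10, per the submitters' processing notes. Per the labels' protocols, polyadenylated RNA was made into stranded low-input libraries. For aligner, counter, strand setting of the count, unit and log base the labels are silent. Base 2 was inferred from length-weighted sums of the linear values, which for a per-kilobase value would come to 1000000. Over exon bases, base 2 gave 1304885 to 1400609 and base e 8963130 to 11156834. Over mean transcript lengths, base 2 gave 496669 to 525664 and base e 3804377 to 4628317. Base 2 was thus nearer by both lengths, though it matched by neither. Of 32245 rows, 26 bore a date in place of a symbol and were left out. GENCODE vM21 (GRCm38) placed the genes.

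The 2-sided comparison of KO 2 and KO 3 against WT 1 to WT 3 used limma (version 3.58.1, under R 4.3.3), its variance prior following mean level. It covered 22047 genes, each detected in 3 or more of those libraries. Benjamini-Hochberg adjustment covered all of them. The step was tested on simulated data. Exons of Dclk1, Trpm5, Ptgs1, Avil, Ltc4s, Alox5ap and Hebp1 overlap genes on the opposite strand.

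The members and lists were chosen with earlier results of these data known. All members are named. From each further list up to 4 genes with the smallest unadjusted p could be named. Gng13, Chtf18 and Ptprc were named after their values were seen. Alternatives varied the use of KO 1, the block, normalization, added constant, filter, variance model and libraries.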

Additional observations from a re-analysis of the deposited data

How the results depend on the processing

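The count of 0 tuft cell genes called held under every alternative run, although the stricter filter dropped Pou2f3, Gfi1b and Sucnr1. The count over all genes was 1 by the main comparison. It was 0 with all 6 libraries as deposited, the replicate block, an added constant of 0.1, no filter and the stricter filter. With libraries left out it was 0 each time. Centred on epithelial genes it was 57 (24 higher in KO), with a smallest limma adjusted p of 2.96e-34. So small a value is not credible from 5 libraries, so that count is not relied on, and its cause was not tested. The median fold of the members was -0.43 with all 6 libraries as deposited, where the listed zeros of KO 1 enter as values, -0.052 to 0.039 under the other settings and -0.071 to 0.082 with libraries left out. With those zeros the folds turned to -0.85 for Dclk1, -1.24 for Ptgs1, -0.076 for Sucnr1, -0.55 for Hpgds, -0.015 for Gnb3, -0.24 for Alox5ap, -0.00049 for Spib, -0.022 for Hebp1, -0.11 for Bmx and -0.075 for Gata3, while Avil, which has a value in KO 1, turned to 0.069 with that value unscaled. With KO 1 rescaled, Sox9 turned to -0.036 and Retnlb to -0.19. Median centring turned Sucnr1 to -0.034. The fold of Sh2d6 was -0.44 with median centring (limma unadjusted p = 0.039) and -0.43 with quantile normalization (limma unadjusted p = 0.0499). Neither passed after adjustment. With an added constant of 0.1 the folds grew to 0.58 for Gfi1b, -0.42 for Pou2f3 and -0.72 for Sh2d6. Over left-out libraries, folds that changed sign ran from -0.13 to 0.094 for Avil, -0.022 to 0.069 for Sucnr1, -0.00042 to 0.18 for Dclk1, -0.015 to 0.24 for Gfi1b, -0.51 to 0.28 for Trpm5, -0.16 to 0.0029 for Alox5, -0.16 to 0.47 for Ptgs1, -0.27 to 1.64 for Spib, -0.0040 to 0.88 for Vav1, -0.11 to 0.012 for Tas1r1 and -0.011 to 0.90 for Ptgs2. Without a change of sign they ran from 0.018 to 0.20 for Hpgds, -0.20 to -0.089 for Pou2f3, 0.12 to 0.76 for Retnlb, 0.13 to 0.37 for Tslp, 0.050 to 0.29 for Gata3, 0.056 to 0.32 for Sox9, 0.042 to 0.62 for Hmx3 and -1.03 to -0.048 for Areg. A lone KO library is there assumed to vary like the others. The replicate block turned Avil to 0.088; for numbers 2 and 3 the same-numbered pair correlated at 0.28 and 0.33 in their distance from the group means, but with 2 KO libraries these distances are equal and opposite by construction, so pairing is not shown. As a hint from the data, the same-numbered libraries were the closest across genes (Pearson 0.995 for KO 2 with WT 2 and 0.993 for KO 3 with WT 3, against 0.988 to 0.991 for the other pairs); number 1 could not be examined. Depth is unknown, and genes near 0 limit what could be seen.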
